A study of Homo sapiens with 18 samples.

Results

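The genes described here are 48 enzymes and subunits of the hexosamine pathway and of asparagine-linked (N-linked) glycosylation, measured by RNA sequencing in Cal27, an established human tongue squamous carcinoma line. They were taken by symbol from the 60683 gene IDs of the count table, for their known place in the pathway. Earlier results of these data were known when the list was chosen. All 48 were found, and all 48 were among the 18159 genes with enough counts to test. They were ordered by role into 8 genes of hexosamine and sialic acid supply, 8 of mannose donor supply, 4 of dolichol supply, 13 of lipid-linked oligosaccharide assembly, 9 of oligosaccharyltransferase and 6 of glycan trimming in the endoplasmic reticulum (ER).

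Cells convert some of their fructose 6-phosphate into UDP-N-acetylglucosamine through the hexosamine pathway, and other sugar phosphates into GDP-mannose and UDP-glucose. From these donors an oligosaccharide is built sugar by sugar on the lipid dolichol in the ER membrane. Oligosaccharyltransferase moves it as a whole onto asparagines of new proteins, and glucosidases then trim it so that the lectins calnexin and calreticulin can help the protein to fold. Lack of glucose starves the supply of donors, and the sugar analogue 2-deoxyglucose (2-DG), an inhibitor of glycolysis, can also enter the lipid-linked oligosaccharide in place of mannose.

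Each of the 18 libraries came from Cal27 cells kept for 24 hours in 1 of 3 media, with 3 libraries per group and 6 groups. The media were high-glucose DMEM, the same kind of culture without glucose, and high-glucose DMEM with 5 mM 2-DG. In every medium 1 group had CGRP (calcitonin gene-related peptide, which sensory nerve endings release) as 10 nM of the recombinant human form, and 1 group had control medium. The series describes the repetitions as independent, and its codes TG and capTG as CGRP and control, while its culture protocol speaks of differing CM without more detail. All groups are 1 cell line, with no second line or primary cells. Markers of squamous epithelium were present, with a sum of 3334 to 4616 CPM over 7 genes (CPM is a gene's count scaled to the total of its library). The 5 leukocyte markers summed to 0 to 4.71 CPM, the 6 fibroblast markers to 10.6 to 28.7 CPM and the 3 endothelial markers to 1.79 to 43.9 CPM. The 6 Schwann cell and neuron markers summed to 3.13 to 24.1 CPM.

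Libraries held 28038260 to 32661768 counts. Deprivation split the libraries along the first principal component (68.7% of the variance). Along the second (7.39%), deprived CGRP replicate 2 (59.3) and 2-DG control replicate 2 (34.6) stood apart from the others of their groups (-14.8 to -9.78). Counts are therefore also given without both, as are values of some single genes. The fit takes the spread from all groups together, so this also moves comparisons that hold neither library. Levels are CPM with library totals scaled by the trimmed mean of M values (TMM). Differences are log2 fold changes with their standard error (SE), and "rose" and "fell" mean an adjusted p under 0.05 in edgeR's quasi-likelihood test with Benjamini-Hochberg adjustment over all 18159 genes. In RNA of whole cultures, fewer cells that make a transcript and less of it per cell cannot be told apart.

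The question of the first comparison was what lack of glucose does to these genes without CGRP. Transcripts of the pathway rose at nearly every stage: 38 of 48 genes rose, 3 fell (GFPT2, TUSC3 and DPM3) and 7 did not pass the test. In the same comparison 60.6% of all genes passed, 31.0% upwards and 29.6% downwards, so that passing by itself was common. The median log2 fold change was 0.59 over the 48 and 0.02 over all genes, and 12 of the 48 rose at least 2-fold, which 8.35% of all genes did. Summed over the 48 genes, the level was 4365 ± 22.5 CPM (SD, n = 3) in the high-glucose control and 7109 ± 12.5 CPM in the deprived control. Scaled by total counts, which moved the median of all genes to -0.133, 34 rose and 6 fell, and the share of all passing genes that rose was 38.0% in place of 51.2%. Neither library that stands apart is in the groups compared here, but both enter the estimate of spread. With both left out, 40 rose and 5 fell (GFPT2, TUSC3, DPM3, DPM1 and CMAS), with 73.1% of all genes passing.

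Cell type markers moved in this comparison too. Of the 7 squamous markers, KRT14 (-2.10), KRT5 (-1.64) and KRT6A (-0.21) fell, and KRT17 (0.71), CDH1 (0.61) and ITGB4 (0.53) rose, with sums of 4463 to 4559 CPM in the high-glucose control and 3745 to 3806 CPM in the deprived control. All 4 fibroblast markers that could be tested fell, and the sum of the list was 25.4 to 27 CPM and 10.6 to 11.6 CPM. Both testable endothelial markers fell, CDH5 by 3.46 and VWF by 3.97, with sums of 24.3 to 25.2 CPM and 1.79 to 2.63 CPM. CD14 fell by 5.51, and the leukocyte sum was 2.16 to 2.4 CPM and 0 to 0.0987 CPM. Of 4 testable Schwann cell and neuron markers 3 fell, NEFM by 2.83, and 1 rose, with sums of 10.8 to 11.5 CPM and 3.13 to 3.89 CPM. The part of these markers in the differences of the 48 was not tested.

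**Figure D1:**
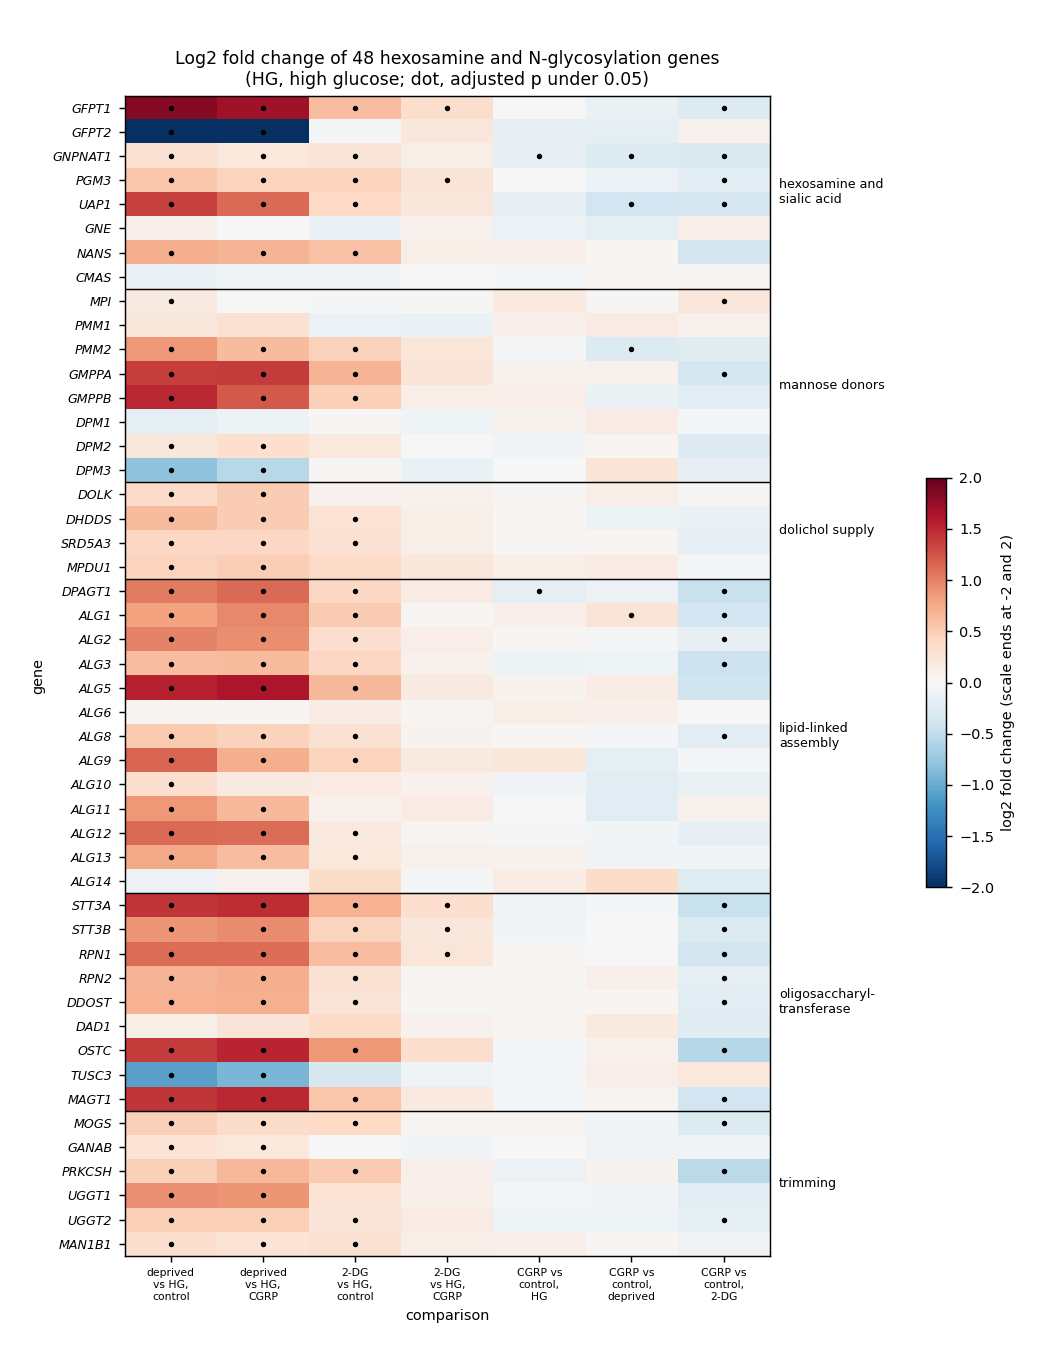
Log2 fold change (colour) of each of the 48 genes (rows, grouped by role) in 7 comparisons (columns), with a dot where the adjusted p was under 0.05. The columns of deprivation without and with CGRP look alike, with 38 and 36 rises, beside 31.0% and 31.9% of all genes. With 2-DG, 30 genes rose without CGRP and 5 with it, beside 7.99% and 1.52% of all genes.

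Hexosamine supply shifted between isoenzymes. GFPT1 (ENSG00000198380), the amidotransferase that catalyses the first and rate-limiting step, stood at 101, 99.5 and 99.5 CPM in the high-glucose control. It stood at 359, 351 and 351 CPM in the deprived control and at 165, 133 and 163 CPM in the 2-DG control. The 3 groups did not overlap, with deprived libraries highest and 2-DG libraries between. The log2 fold change was 1.82 ± 0.08 with deprivation (adjusted p = 7.4e-12) and 0.62 ± 0.08 with 2-DG (adjusted p = 5.5e-05). GFPT2 (ENSG00000131459), the second enzyme for the same reaction, stood at 63.7, 64.1 and 67.2 CPM in the high-glucose control, 16.6, 15.9 and 15 CPM in the deprived control and 63.9, 62.4 and 63.4 CPM in the 2-DG control. Every deprived library was far below the others, while the 2-DG and high-glucose libraries overlapped. Its log2 fold change was -2.04 ± 0.07 with deprivation (adjusted p = 8.0e-13) and -0.04 ± 0.07 with 2-DG (adjusted p = 0.77). Per kilobase of exon, GFPT1 and GFPT2 were at 11.3 and 13.6 CPM in the high-glucose control, at 39.9 and 3.31 CPM in the deprived control and at 17.3 and 13.2 CPM in the 2-DG control, so the order of the isoenzymes differed between high glucose and both other media.

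The later hexosamine steps rose with deprivation by differing amounts. UAP1, which makes UDP-N-acetylglucosamine, stood at 48.5, 49.5 and 50 CPM in the high-glucose control and at 130.5, 125 and 123 CPM in the deprived control, with a log2 fold change of 1.36 ± 0.06 (adjusted p = 2.1e-11). PGM3, the phosphoacetylglucosamine mutase, rose by 0.55 ± 0.05, and GNPNAT1, the acetyltransferase before it, by 0.30 ± 0.04. Of the enzymes that lead on to sialic acid, NANS, the sialic acid synthase, rose by 0.73 ± 0.13. GNE, the epimerase that starts that branch, and CMAS, which activates sialic acid, did not pass the test, with log2 fold changes of 0.10 and -0.14.

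With 2-DG, GNPNAT1 (0.25), PGM3 (0.45), UAP1 (0.40), NANS (0.58) and GFPT1 rose, and GFPT2, GNE and CMAS did not pass. The value of NANS was carried partly by 1 library, since the 2-DG control held 103, 136 and 101 CPM against 74.5, 76.2 and 77.4 CPM in the high-glucose control. The high value is that of 2-DG control replicate 2, yet the groups did not overlap without it either.

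In mannose donor supply, 5 of 8 genes rose with deprivation, 1 fell, and 3 rose with 2-DG. Beside this and the role counts below, 31.0% of all genes rose and 29.6% fell with deprivation, and 7.99% rose with 2-DG. GMPPB, the catalytic subunit that makes GDP-mannose, stood at 17.6, 17.5 and 18.1 CPM in the high-glucose control, 48.7, 50.8 and 50.9 CPM in the deprived control and 23.1, 26.6 and 24.8 CPM in the 2-DG control. The 3 groups did not overlap, and GMPPB was 2.82-fold higher with deprivation (adjusted p = 2.1e-11), with a log2 fold change of 0.48 ± 0.07 with 2-DG. GMPPA, its regulatory partner, stood at 38.9, 37.1 and 34.4 CPM in the high-glucose control, 95.8, 95.9 and 95.2 CPM in the deprived control and 55, 65.1 and 56.7 CPM in the 2-DG control. These groups too were separate, with log2 fold changes of 1.38 ± 0.09 and 0.68 ± 0.09.

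PMM2, the main phosphomannomutase, rose by 0.87 with deprivation and by 0.46 with 2-DG, whereas its isoenzyme PMM1 did not pass in either medium (0.23 and -0.11). Without both libraries that stand apart PMM1 passed in both media, in opposite directions. It rose with deprivation (0.21, adjusted p = 4.4e-04) and fell with 2-DG (-0.28, adjusted p = 2.4e-04). The subunits of dolichol-phosphate mannose synthase went separate ways with deprivation. DPM3, which anchors the enzyme in the membrane, stood at 11, 9.46 and 9.58 CPM in the high-glucose control and at 5.96, 5.82 and 5.44 CPM in the deprived control, a log2 fold change of -0.80 ± 0.20 (adjusted p = 0.0029). DPM1, the catalytic subunit, did not pass (-0.19), and DPM2, a small membrane subunit, rose by 0.23, a call lost without any 1 of the 6 libraries compared (adjusted p 0.043 with all). MPI, which interconverts fructose and mannose 6-phosphate, rose by 0.18 (adjusted p = 0.011), a call lost without deprived control replicate 2 or 3. None of the DPM subunits nor MPI passed with 2-DG.

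All 4 genes of dolichol supply rose with deprivation, by 0.39 to 0.63. DHDDS, a subunit of the enzyme that builds the polyprenol chain, stood at 34.9, 35.3 and 33.8 CPM in the high-glucose control, 52.9, 54.2 and 54.2 CPM in the deprived control and 41.8, 43.6 and 40.4 CPM in the 2-DG control. Its groups were separate, and the log2 fold change was 0.63 ± 0.05 with deprivation and 0.28 ± 0.05 with 2-DG. MPDU1, needed for the use of dolichol-linked mannose and glucose, stood at 49.4, 49.1 and 50 CPM in the high-glucose control, 68.5, 68.2 and 66.4 CPM in the deprived control and 57.7, 74.5 and 62.7 CPM in the 2-DG control. The 2-DG values spread on both sides of the deprived ones. MPDU1 rose by 0.45 ± 0.13 with deprivation and did not pass with 2-DG (0.39 ± 0.13, adjusted p = 0.06). Without both libraries that stand apart its 2-DG difference passed (0.27, adjusted p = 5.2e-06).

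SRD5A3, which helps to turn polyprenol into dolichol, stood at 12.5, 12.6 and 12.9 CPM in the high-glucose control, 16.7, 16.5 and 17.1 CPM in the deprived control and 15.5, 17.2 and 14.3 CPM in the 2-DG control. It rose by 0.41 ± 0.09 and 0.31 ± 0.09. The rise with 2-DG (adjusted p = 0.03) was lost without any 1 of the 3 high-glucose controls, or without 2-DG control replicate 1 or 2. DOLK, the dolichol kinase, rose by 0.39 with deprivation and did not pass with 2-DG (0.08).

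In the assembly of the lipid-linked oligosaccharide, 11 of 13 genes rose with deprivation and 9 with 2-DG. DPAGT1, which starts the chain and is the target of tunicamycin, stood at 29.3, 29.5 and 27.5 CPM in the high-glucose control, 61.1, 56.1 and 60.7 CPM in the deprived control and 39, 36.3 and 39.6 CPM in the 2-DG control. The groups did not overlap, and the log2 fold change was 1.04 ± 0.05 with deprivation and 0.41 ± 0.05 with 2-DG. ALG5, which makes the glucose donor dolichol-phosphate glucose, stood at 26.5, 26.2 and 26.9 CPM in the high-glucose control, 78.7, 73.9 and 78.4 CPM in the deprived control and 37.7, 48.5 and 38.7 CPM in the 2-DG control. Its groups were separate as well, with the highest 2-DG value in 2-DG control replicate 2, and it rose by 1.54 ± 0.13 and 0.65 ± 0.13. ALG9, a mannosyltransferase of the ER lumen, was scarce, at 3.1, 3.05 and 3.67 CPM in the high-glucose control, 6.95, 7.44 and 7.48 CPM in the deprived control and 4.88, 4.34 and 4.08 CPM in the 2-DG control. It rose by 1.16 ± 0.12 and 0.44 ± 0.13, the second of which (adjusted p = 0.031) was lost without any of 4 libraries: high-glucose control replicate 1 or 2, or 2-DG control replicate 1 or 2.

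The other assembly genes that rose with deprivation were ALG12 (1.14), ALG2 (0.99), ALG11 (0.86), ALG1 (0.81) and ALG3 (0.62), which add mannose, ALG13 (0.75), part of the enzyme that adds the second N-acetylglucosamine, and ALG8 (0.52) and ALG10 (0.33), which add glucose. ALG6, which adds the first glucose, and ALG14, the partner of ALG13, did not pass (0.04 and -0.12). With 2-DG, ALG1 (0.50), ALG2 (0.33), ALG3 (0.42), ALG8 (0.31), ALG12 (0.19) and ALG13 (0.21) rose. The call of ALG13 was lost without high-glucose control replicate 1, and that of ALG12 without high-glucose control replicate 1 or 3, or 2-DG control replicate 2 or 3.

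Oligosaccharyltransferase has a catalytic subunit of either form, STT3A in the complex at the translocon and STT3B in the complex that also modifies finished chains. STT3A stood at 129, 131 and 128 CPM in the high-glucose control, 348, 347 and 352 CPM in the deprived control and 209, 219 and 203 CPM in the 2-DG control. STT3B stood at 135, 135 and 137 CPM in the high-glucose control, 251, 248 and 250.5 CPM in the deprived control and 193, 169.6 and 189.8 CPM in the 2-DG control. Both were highest in every deprived library and lowest in every high-glucose library. With deprivation STT3A rose by 1.43 ± 0.05 (adjusted p = 4.5e-13) and STT3B by 0.88 ± 0.05 (adjusted p = 1.5e-10), and with 2-DG by 0.70 ± 0.05 (adjusted p = 1.6e-07) and 0.44 ± 0.05 (adjusted p = 1.9e-05). Per kilobase of exon the pair stood at 17.5 and 27 CPM in the high-glucose control and at 47.2 and 49.8 CPM in the deprived control.

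OSTC, a subunit of the STT3A complex, stood at 50.4, 53 and 54 CPM in the high-glucose control, 139, 142 and 133 CPM in the deprived control and 87.6, 106 and 91.7 CPM in the 2-DG control. It rose by 1.40 ± 0.11 with deprivation, and its 0.86 ± 0.11 with 2-DG was the largest 2-DG difference of the 48. The thioredoxin-like subunits of the STT3B complex are alternatives to each other, and they moved in opposite directions. MAGT1 stood at 111, 116 and 109 CPM in the high-glucose control, 305, 301 and 301 CPM in the deprived control and 169, 156 and 172 CPM in the 2-DG control. TUSC3, named after its values were seen, stood at 6.2, 5.81 and 6.86 CPM in the high-glucose control, 2.93, 2.82 and 3.16 CPM in the deprived control and 5.35, 4.62 and 5.11 CPM in the 2-DG control. Deprived libraries were highest for the former and lowest for the latter, with log2 fold changes of 1.43 ± 0.06 (adjusted p = 2.2e-12) and -1.08 ± 0.11 (adjusted p = 4.5e-07). With 2-DG, MAGT1 rose by 0.56 ± 0.06 and TUSC3 did not pass (-0.32 ± 0.11, adjusted p = 0.056). Per kilobase of exon, MAGT1 and TUSC3 were at 23.1 and 1.21 CPM in the high-glucose control and at 62.1 and 0.573 CPM in the deprived control, so MAGT1 was the more abundant form in both.

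Of the subunits common to all forms of the enzyme, RPN1 rose by 1.11, DDOST by 0.69 and RPN2 by 0.68 with deprivation, and by 0.61, 0.26 and 0.30 with 2-DG. DAD1 did not pass in either medium (0.11 and 0.38). Without both libraries that stand apart DAD1 passed in both (0.08, adjusted p = 0.03, and 0.22, adjusted p = 4.6e-06).

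**Figure D2:**
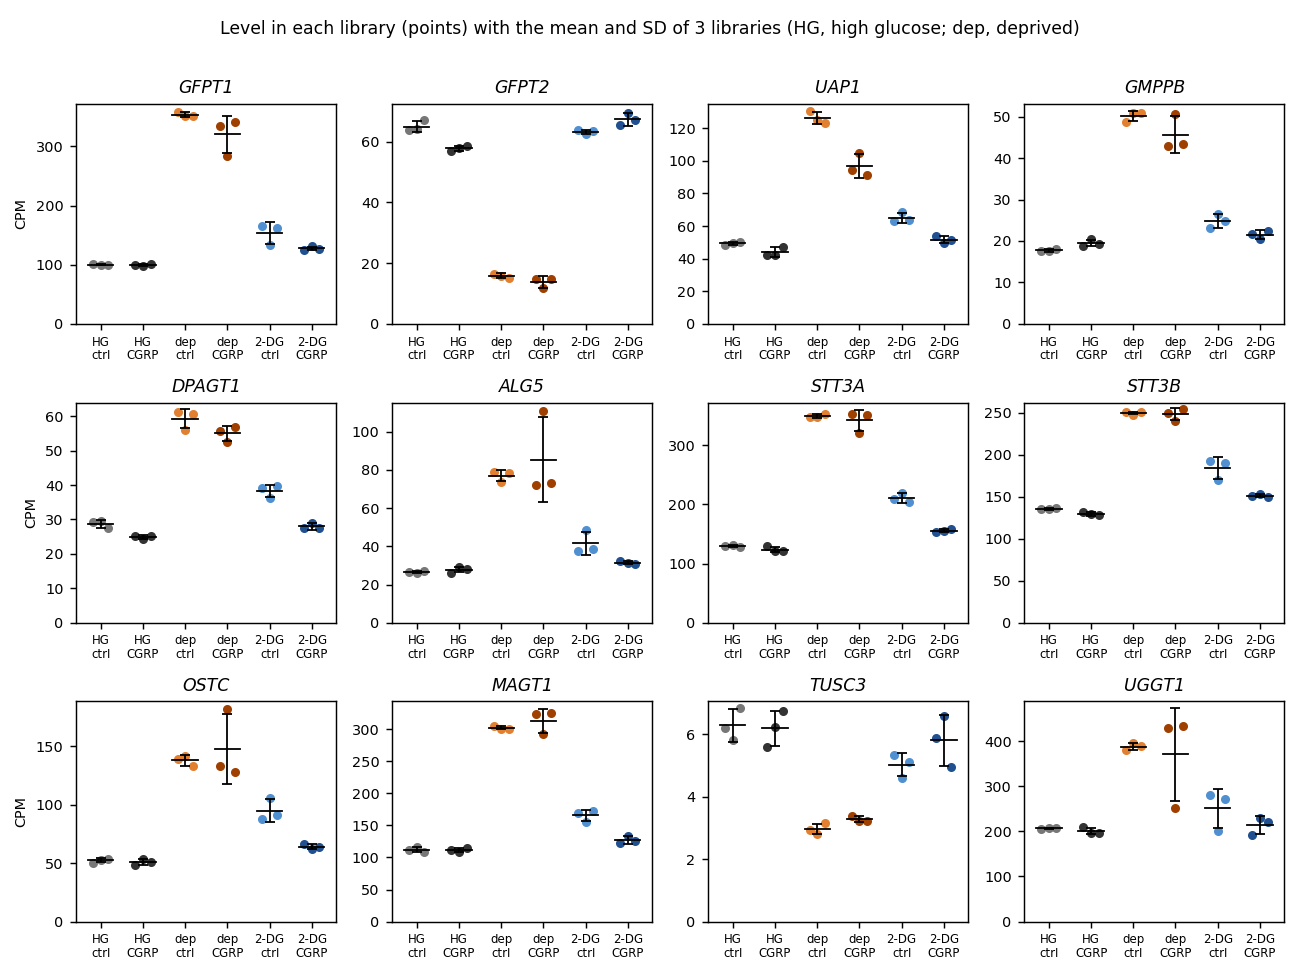
Level (CPM, linear axis from 0) of 12 of the genes in each library (points), with the mean and SD of the 3 libraries of each group. Every deprived library, with or without CGRP, lay above all others for 9 of the genes and below all others for GFPT2 and TUSC3, and 1 point of ALG5, OSTC and UGGT1 in the deprived CGRP group lies far from the other points of its group.

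All 6 genes of trimming in the ER rose with deprivation, by 0.27 to 0.91. UGGT1, the glucosyltransferase that re-tags misfolded glycoproteins, stood at 206, 208 and 207 CPM in the high-glucose control, 379.8, 396 and 389.6 CPM in the deprived control and 281, 202 and 271 CPM in the 2-DG control. The low value is again that of 2-DG control replicate 2, which lay below all high-glucose controls while its mates lay above them. UGGT1 rose by 0.91 ± 0.16 with deprivation and did not pass with 2-DG (0.28 ± 0.16, adjusted p = 0.27), while without both libraries that stand apart the 2-DG difference was 0.41 (adjusted p = 1.2e-06). UGGT2, its paralog, stood at 36.6, 36.7 and 34.6 CPM in the high-glucose control, 49.4, 50.7 and 50.7 CPM in the deprived control and 45.2, 39.6 and 44.8 CPM in the 2-DG control, and it rose by 0.48 ± 0.05 and 0.26 ± 0.05. The groups of UGGT2 did not overlap.

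PRKCSH, the regulatory subunit of glucosidase II, stood at 280.0, 276 and 287 CPM in the high-glucose control, 382, 395 and 392 CPM in the deprived control and 393, 447 and 367 CPM in the 2-DG control. Here the 2-DG and deprived libraries overlapped, with log2 fold changes of 0.52 ± 0.08 and 0.47 ± 0.08 against high glucose. Its catalytic partner GANAB rose by 0.27 with deprivation and did not pass with 2-DG (-0.00). MOGS, glucosidase I, stood at 79.4, 78.8 and 80.3 CPM in the high-glucose control, 109.8, 112 and 112 CPM in the deprived control and 103, 106 and 106 CPM in the 2-DG control. It rose by 0.48 ± 0.05 and 0.40 ± 0.05, nearly as far in either medium. MAN1B1, the mannosidase that marks glycoproteins for degradation, rose by 0.34 with deprivation and by 0.31 with 2-DG.

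Some of these genes share exon sequence with neighbours, and the counting of such reads is not given in the sources used here. In GENCODE 29, 14 of the 48 had over 10% of their exon bases inside exons of other genes, and 27 had none. Among the 34 with little or no overlap, 24 rose and 3 fell with deprivation, and 21 rose and 0 fell with 2-DG. Of all genes, 31.0% rose and 29.6% fell with deprivation, and 7.99% rose and 5.85% fell with 2-DG. ALG12 shares 42.1% of its exon bases with other genes, among them CRELD2 on the opposite strand. CRELD2, an ER stress gene, was at 46.6 CPM in the high-glucose control and 251 CPM in the deprived control (log2 fold change 2.43), so reads of the pair cannot be told apart without strand. PGM3 (14.8%) overlaps DOP1A, which rose by 1.32, and DPAGT1 (21.3%) overlaps C2CD2L, which rose by 0.88. ALG1 (42.3%) overlaps EEF2KMT, which rose by 0.81, and NAGPA, which rose by 0.41. MPI (24.6%), whose own rise was 0.18, overlaps FAM219B, which rose by 0.53, from 23.7 to 34.4 CPM. GMPPB (54.1%) overlaps RNF123, at -0.06, and AMIGO3, at 0 CPM. ALG10 has a close paralog, ALG10B, which did not pass with deprivation (-0.27), and the split of reads between these is uncertain.

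Because most of the 48 rose together, their promoters were searched for DNA motifs of the unfolded protein response, the program of ER stress whose factors XBP1 and ATF6 bind them. The windows ran from 250 bases before to 50 after annotated starts (RefSeq, GRCh38.p14), and 60 windows were found for 43 of the 48 genes. No window was found for STT3B, RPN1, ALG10, TUSC3 or MOGS. On both strands, CCAAT followed after any 9 bases by CCACG (the ER stress element, ERSE) was in 1 of the 60 windows, or 1.67%, and in 0.0769% of all 35116 windows. TGACGTGG (the core of the unfolded protein response element, UPRE) was in 2, or 3.33%, and in 0.729% of all. ATTGG followed after any 1 base by CCACG (ERSE-II; 0.0541% of all) and TGATGNAAN (the element bound by ATF4 and its partners; 3.61% of all) were in 0. The stretches below are the full matches, with the motif in capitals.
ALG12 (chr22:49918529-49918597, minus strand; ERSE from 134 to 116 bases before the start): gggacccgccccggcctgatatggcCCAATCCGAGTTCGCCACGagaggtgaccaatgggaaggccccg
NANS (chr9:98056666-98056723, plus strand; UPRE core from 41 to 34 bases before the start): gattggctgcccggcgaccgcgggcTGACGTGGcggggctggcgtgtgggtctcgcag
DHDDS (chr1:26432289-26432321, plus strand; UPRE core read on the other strand, ending at the start): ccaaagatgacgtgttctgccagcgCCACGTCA

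The window of ALG12 shares 295 of its 300 bases with that of CRELD2, which starts in the opposite direction, so that match lies before both genes. With the motifs shortened by their last base, a form chosen after the full matches were known, the shorter ERSE (ending in CCAC) was in 3 windows (5%; ALG12 and ALG5) and in 0.316% of all, and TGACGTG in 4 windows (6.67%; DHDDS, NANS and UAP1) and in 1.97% of all. The matching windows of ALG5 overlap and hold the same site, and so do those of UAP1. These sites therefore count more than once, as can sites in the windows of all genes. GFPT1, STT3A, GMPPB and MAGT1, among the largest rises, had no match. A match is a run of letters in a window and shows no binding.

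The next comparison was of 2-DG with high glucose, without CGRP. Rises again outnumbered falls: 30 of 48 genes rose and 0 fell, while 13.8% of all genes passed, 7.99% upwards and 5.85% downwards. It shares the high-glucose control with the comparison of deprivation. The median was 0.31 over the 48 and 0.01 over all genes, and none of the 48 reached 2-fold. The largest differences were those of OSTC (0.86), STT3A (0.70), GMPPA (0.68), ALG5 (0.65), GFPT1 (0.62) and RPN1 (0.61). The summed level was 5469.5 ± 119 CPM (SD, n = 3), between the other control groups. Of the markers, TP63 (-0.56) and COL1A1 (-0.63) fell and NEFM (0.36) rose, and their part was not tested. Without both libraries that stand apart, 36 rose and 2 fell (PMM1 and CMAS), with 33.1% of all genes passing. Scaled by total counts, 27 rose and 1 fell, and 38.1% of passing genes rose in place of 57.7%.

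Set directly against deprivation, 2-DG gave lower levels for 29 genes and higher levels for 4, with 57.5% of all genes passing, 28.9% upwards and 28.6% downwards. Leaving out both libraries that stand apart, 33 were lower and 7 higher, with 67.7% of all genes passing. The widest gap was that of GFPT2, 2.00 ± 0.07 higher with 2-DG, followed by GFPT1, which differed by -1.20 ± 0.08. DPM3 (0.82), TUSC3 (0.76) and ALG14 (0.48) were the others with higher levels in 2-DG. MOGS, PRKCSH and NANS did not pass (-0.08, 0.05 and -0.15). This comparison shares its libraries with those above.

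HSPA5, the main ER chaperone, and 3 further genes stood beside as a reference for ER stress. HSPA5 had a mean of 922 CPM in the high-glucose control, 20583 CPM in the deprived control and 2266 CPM in the 2-DG control, with log2 fold changes of 4.48 and 1.30. XBP1, a transcription factor of the unfolded protein response, was at 73.6, 292 and 142 CPM, and HERPUD1, an ER degradation gene, at 28.3, 280.2 and 58.5 CPM. DDIT3, a stress factor downstream of ATF4, was at 10.3, 256 and 13.7 CPM and did not pass with 2-DG (0.40). The part of ER stress in the differences of the 48 genes was not tested.

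The medium was then compared in cells that all had CGRP, in libraries that share none with the comparisons above. With deprivation 36 of 48 rose and 3 fell, against 60.4% of all genes passing (31.9% upwards, 28.5% downwards), and the median was 0.57. When both libraries that stand apart were left out, 37 rose and 5 fell, with 70.6% of all genes passing. Of the 41 genes that passed without CGRP, 39 (95.1%) passed in the same direction with it, which is all of the 39 that passed with it. ALG10 and MPI were the exceptions. The log2 fold changes had a Pearson r of 0.98 across the 48 genes, which is a description, since genes of 1 sample are not independent and the points share libraries. GFPT1 differed by 1.68 ± 0.08, GFPT2 by -2.06 ± 0.07, STT3A by 1.47 ± 0.05 and TUSC3 by -0.92 ± 0.11. The fall of DPM3 (-0.56 ± 0.20, adjusted p = 0.025) was lost without any of 4 libraries, and the deprived CGRP group held 5.65, 10.2 and 4.78 CPM, of which the high value is replicate 2.

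With 2-DG in cells that had CGRP, 5 of 48 genes rose and 0 fell, against 2.39% of all genes passing (1.52% upwards, 0.870% downwards): GFPT1 (0.35), STT3A (0.33), PGM3 (0.25), RPN1 (0.24) and STT3B (0.22). These were 16.7% of the 30 that rose without CGRP. Over all genes, 1451 rose with 2-DG without CGRP and 276 with it, counted apart and not matched by gene. The log2 fold change was smaller with CGRP for 42 of 48 genes. This change had a median of -0.20 over the 48 and -0.01 over all genes. OSTC stood at 66.4, 61.9 and 64 CPM with 2-DG and CGRP and at 48.3, 53.5 and 50.9 CPM in high glucose with CGRP, and did not pass (0.33 ± 0.11, adjusted p = 0.13). The summed level was 4671 ± 12.7 CPM (SD, n = 3) against 4355 ± 3.96 CPM. Without both libraries that stand apart, neither of which is in these 2 groups, 20 rose, with 19.8% of all genes passing. Without any 1 of the 6 libraries compared, 1 or 2 of the 5 remained, STT3A in each case.

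**Figure D3:**
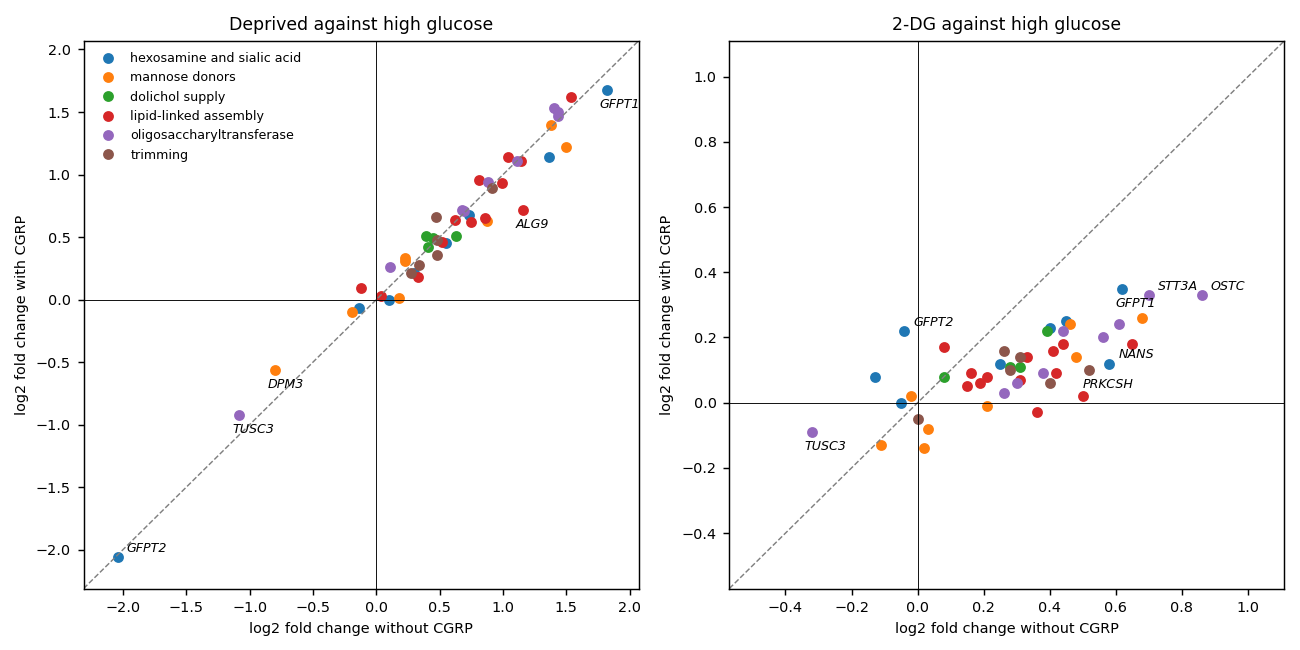
Log2 fold change of each of the 48 genes (points, coloured by role) without CGRP (horizontal) and with CGRP (vertical), for deprivation (left) and 2-DG (right); the dashed line marks equal values. Points of deprivation lie along the line, and 42 of the 48 points of 2-DG have a smaller value with CGRP. For 2-DG, the value with CGRP minus that without it had a median of -0.20 over the 48 and -0.01 over all genes.

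CGRP against control was the study's main question, asked in each medium. In high glucose 0 of the 48 rose and 2 fell, against 4.33% of all genes passing (2.04% upwards, 2.29% downwards), with a median of 0.01. GNPNAT1 was at 103, 106 and 103 CPM in the control and 93.2, 93.4 and 92.8 CPM with CGRP, without overlap, and differed by -0.16 ± 0.04 (adjusted p = 0.045). DPAGT1 was at 29.3, 29.5 and 27.5 CPM in the control and 25.2, 24.4 and 25.3 CPM with CGRP, also without overlap, and differed by -0.20 ± 0.05 (adjusted p = 0.046). Both calls were lost without any 1 of the 6 libraries and with DESeq2's size factors. Neither library that stands apart is in these groups, yet without them 3 rose and 5 fell, with 19.4% of all genes passing. GFPT1, at 100.3, 97.7 and 101 CPM with CGRP, did not pass (-0.00 ± 0.08), and neither did STT3A (-0.07 ± 0.05) or STT3B (-0.06 ± 0.05).

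In deprived medium 1 of the 48 rose with CGRP and 3 fell, against 13.0% of all genes passing (6.38% upwards, 6.58% downwards), and the median was 0.00. UAP1 stood at 130.5, 125 and 123 CPM in the control and at 94.3, 105 and 91.1 CPM with CGRP, with every CGRP library below every control, and differed by -0.38 ± 0.06 (adjusted p = 8.1e-04). GNPNAT1 stood at 130.1, 128 and 127 CPM and at 109.9, 106 and 107 CPM, again without overlap, and differed by -0.26 ± 0.04 (adjusted p = 9.8e-04). With only the 6 libraries compared in the fit, neither UAP1 (adjusted p = 0.085) nor GNPNAT1 (adjusted p = 0.17) passed, and 0 of the 48 did. PMM2 fell by 0.28 (adjusted p = 0.037) and ALG1 rose by 0.26 (adjusted p = 0.045). The calls of PMM2 and ALG1 were also lost without any 1 of the 3 deprived controls or without deprived CGRP replicate 2. Of the cell type markers, CD14 (2.71), COL1A2 (1.36), NEFM (1.31), CDH5 (0.69) and PDGFRB (0.69) rose and KRT6A (-0.51) and TP63 (-0.42) fell, and their part was not tested.

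That replicate was far from its mates for several of the 48 in this group. UGGT1 stood at 429, 252 and 433 CPM, ALG5 at 71.9, 111 and 73.4 CPM, MPDU1 at 64.9, 99.7 and 63.3 CPM, and GFPT1 at 335, 284 and 342 CPM. In each the second value stands apart, downwards for UGGT1 and GFPT1 and upwards for ALG5 and MPDU1. Without both libraries that stand apart, 3 rose (ALG1, MAGT1 and UGGT1) and 8 fell, with 29.1% of all genes passing. With total counts as scale, 2 rose and 2 fell, and 66.2% of passing genes rose in place of 49.2%.

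In 2-DG medium, CGRP went with lower levels of many of these genes. Of the 48, 20 fell and 1 rose, against 12.2% of all genes passing (5.31% upwards, 6.89% downwards), and the median was -0.21 over the 48 and -0.01 over all genes. The summed level was 5469.5 ± 119 CPM in the control and 4671 ± 12.7 CPM with CGRP (SD, n = 3), with no overlap of libraries. Counted by genes that passed, the falls were uneven over the roles. They took in 7 of 9 oligosaccharyltransferase genes, 5 of 13 assembly genes and 4 of 8 hexosamine genes. In the other roles, 3 of 6 trimming genes, 1 of 8 mannose donor genes and 0 of 4 dolichol genes fell. The median log2 fold changes lay closer together, and all were negative. They were -0.28 for oligosaccharyltransferase, -0.24 for hexosamine supply and -0.21 for trimming. For mannose donors, assembly and dolichol supply they were -0.18, -0.17 and -0.09.

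STT3A stood at 209, 219 and 203 CPM in the 2-DG control and at 153, 155 and 158 CPM with CGRP, with a clear gap, and differed by -0.44 ± 0.05 (adjusted p = 2.0e-05). STT3B stood at 193, 169.6 and 189.8 CPM and at 151, 153 and 149.6 CPM, and differed by -0.28 ± 0.05 (adjusted p = 0.001). OSTC stood at 87.6, 106 and 91.7 CPM and at 66.4, 61.9 and 64 CPM, and at -0.57 ± 0.11 (adjusted p = 0.0019) had the largest difference of the 48. All 3 are parts of oligosaccharyltransferase, and in each the CGRP libraries lay below every control library. MAGT1 (-0.38), RPN1 (-0.36), DDOST (-0.21) and RPN2 (-0.18) fell as well, the last of these with a call lost without 2-DG control replicate 2 or any 1 of the CGRP libraries. DAD1 (-0.24) and TUSC3 (0.21) did not pass.

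Of the assembly genes, DPAGT1 stood at 39, 36.3 and 39.6 CPM in the control and at 27.4, 29 and 27.5 CPM with CGRP, close to its 29.3, 29.5 and 27.5 CPM in the high-glucose control. The groups with and without CGRP were separate, and the log2 fold change was -0.45 ± 0.05 (adjusted p = 4.1e-05). ALG3 (-0.43), ALG1 (-0.38), ALG8 (-0.21) and ALG2 (-0.17) also fell. The call of ALG2 was lost without any 1 of the 6 libraries, and that of ALG8 without any but 2-DG control replicate 1.

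Among the hexosamine genes, GFPT1 stood at 165, 133 and 163 CPM in the control and at 125, 131 and 127 CPM with CGRP. The second control lay just above the CGRP libraries, and the difference of -0.27 ± 0.08 (adjusted p = 0.03) was lost without 2-DG control replicate 1 or 3 or any 1 of the CGRP libraries. UAP1 (-0.33), GNPNAT1 (-0.29) and PGM3 (-0.21) fell, the last with a call lost without 2-DG CGRP replicate 1 or 3. GFPT2, at 65.4, 69.6 and 67.2 CPM with CGRP, did not pass (0.09 ± 0.07).

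PRKCSH stood at 393, 447 and 367 CPM in the control and at 281, 275 and 276 CPM with CGRP, and differed by -0.54 ± 0.08 (adjusted p = 2.0e-04). MOGS stood at 103, 106 and 106 CPM and at 88.7, 84.1 and 86.4 CPM, and differed by -0.28 ± 0.05 (adjusted p = 6.9e-04). Neither gene's groups overlapped. UGGT2 fell by 0.19, a call lost without any 1 of the 6 libraries but 2-DG control replicate 2. GMPPA fell by 0.35, a call lost without 2-DG control replicate 2 or 2-DG CGRP replicate 2 or 3. MPI was the gene that rose (0.23, adjusted p = 0.013), lost without 2-DG control replicate 3.

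HSPA5 moved with these genes, at a mean of 2266 CPM in the 2-DG control and 1392 CPM with CGRP (-0.70), and so did XBP1 at 142 and 93.9 CPM (-0.60). Their part in the falls was not tested. Markers of other cell types, few in reads, were also higher with CGRP. The 3 endothelial markers summed to 21.2 to 25.1 CPM in the 2-DG control and 39.4 to 43.6 CPM with CGRP, nearly all of it CDH5 (0.83). The 6 Schwann cell and neuron markers summed to 11.4 to 14 CPM and 20.6 to 24.1 CPM, with a rise of NEFM (0.98). The 6 fibroblast markers summed to 18.1 to 19.7 CPM and 24.3 to 25.4 CPM, with a rise of COL1A1 (0.48, adjusted p = 8.6e-04). The 5 leukocyte markers summed to 1.81 to 2.04 CPM and 3.19 to 4.34 CPM. Among these, PTPRC, the pan-leukocyte antigen CD45, rose (adjusted p = 3.2e-04), from 0, 0 and 0.0329 CPM to 0.521, 0.579 and 0.822 CPM, and it stood at 0, 0 and 0.0318 CPM with CGRP in high glucose. CD3E, a T cell gene too scarce to test, stood at 0, 0.0342 and 0 CPM and at 0.139, 0.193 and 0.329 CPM. None of the 7 squamous markers passed. In high glucose, the endothelial sum was 24.3 to 25.2 CPM without CGRP and 42.3 to 43.9 CPM with it. The Schwann cell and neuron sum there was 10.8 to 11.5 CPM and 18.4 to 21.5 CPM. The fibroblast sum was 25.4 to 27 CPM and 26.1 to 28.7 CPM, and the leukocyte sum 2.16 to 2.4 CPM and 2.88 to 4.71 CPM. The part of these markers in the falls was not tested.

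Without both libraries that stand apart, 27 of the 48 fell and 2 rose, with 28.8% of all genes passing. Scaled by total counts, 16 fell and 1 rose, and 57.0% of passing genes rose in place of 43.5%. Among the 34 genes with little exon overlap, 15 fell and 0 rose, where 6.89% of all genes fell and 5.31% rose.

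Whether the response to CGRP differed between media was tested as an interaction. For deprivation against high glucose 0 of 48 passed by edgeR's quasi-likelihood test and 0 by DESeq2, with 4 at an unadjusted p under 0.05, against 1.55% of all genes passing (0.903% positive, 0.650% negative). The median was -0.00. Without deprived CGRP replicate 2, 1 passed, and without both libraries that stand apart 6 passed, with 13.6% of all genes passing: UGGT1 was positive (0.20), and GMPPB (-0.35), UAP1 (-0.28), NANS (-0.26), MPI (-0.24) and MPDU1 (-0.21) were negative.

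For 2-DG against high glucose 2 of 48 passed, both negative, against 0.391% of all genes passing (0.121% positive, 0.270% negative). STT3A differed by -0.37 ± 0.07 (adjusted p = 0.032) and MOGS by -0.34 ± 0.06 (adjusted p = 0.033). In high glucose STT3A was at 129, 131 and 128 CPM without CGRP and 129, 120.4 and 121 CPM with it, and MOGS at 79.4, 78.8 and 80.3 CPM without and 82, 83.5 and 83.4 CPM with it. So the groups of STT3A met in high glucose and were far apart with 2-DG, and MOGS was slightly higher with CGRP in high glucose and lower with it in 2-DG. The call of MOGS was lost without any 1 of the 12 libraries, and that of STT3A without any 1 except 2-DG control replicate 2. The median over the 48 was -0.20 against -0.01 for all genes, and 42 of 48 were negative. Without both libraries that stand apart 22 were negative and passed and 1 (GFPT2, 0.25) was positive, with 5.99% of all genes passing. The interaction is the 2-DG difference with CGRP minus that without it. Its 42 negative values are therefore the same as the 42 smaller values given above, and no further result. All 12 libraries are those of the comparisons above, the 2-DG control among them.

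**Figure D4:**
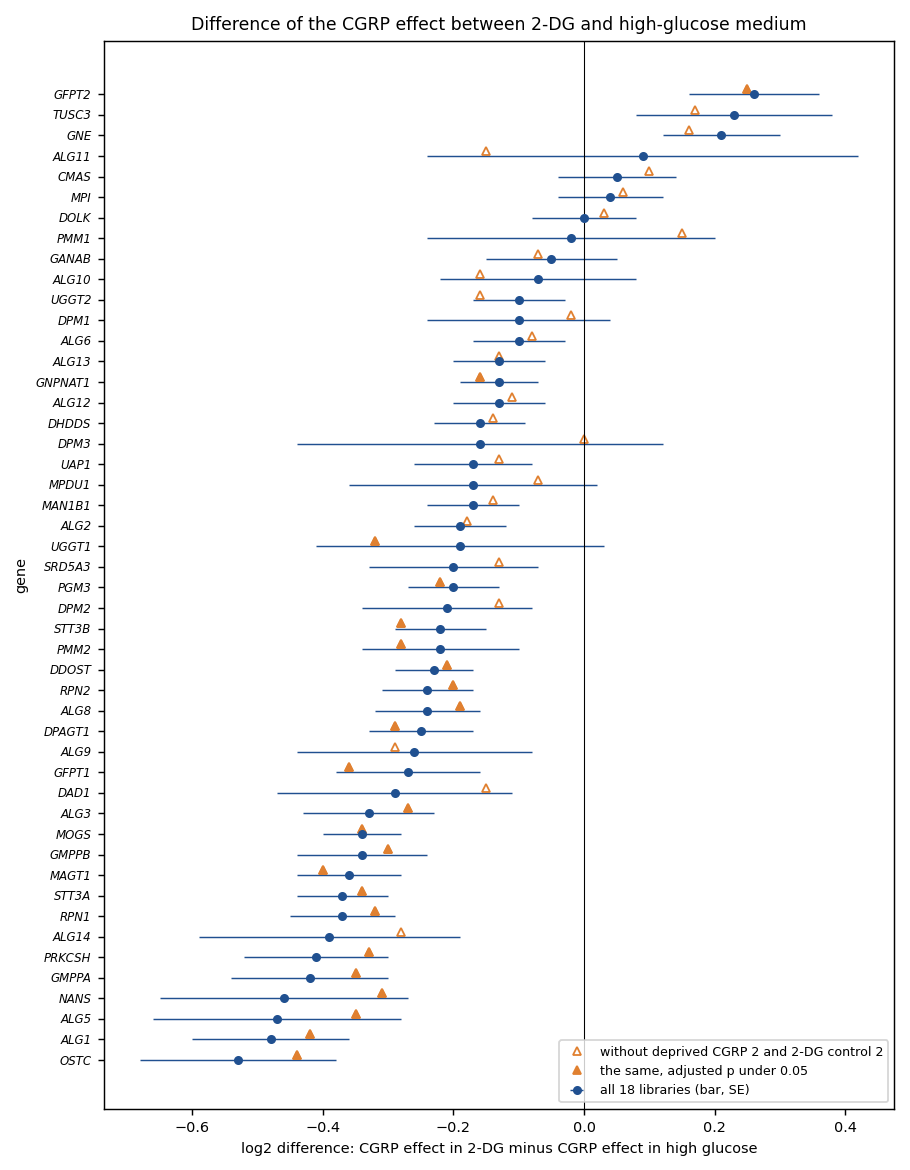
Difference of the CGRP effect between 2-DG and high-glucose medium (log2, horizontal) for the 48 genes, with all 18 libraries (circles, bars are the SE) and without deprived CGRP 2 and 2-DG control 2 (triangles, filled where the adjusted p was under 0.05). With all libraries 42 genes lie below 0 and 2 passed; without the pair 23 passed.

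Around the 48, 47 further genes of glycosylation were read as neighbours of the pathway, 46 of which could be tested. With deprivation 24 rose and 11 fell, or 76.1% of the list, beside 60.6% of all genes. With 2-DG 11 rose and 1 fell, or 26.1% beside 13.8%. With CGRP in 2-DG medium 0 rose and 7 fell, or 15.2%, near the 12.2% of all genes (among them CALR, CANX, B4GALT2, SLC35A2, SLC35C1 and MGAT4B). Of the lectin chaperones that bind trimmed glycans, CALR was at 1188 CPM in the high-glucose control, 3871 CPM in the deprived control and 2021 CPM in the 2-DG control, and CANX at 1087, 3367 and 1821 CPM. Both fell with CGRP in 2-DG medium, by 0.39 and 0.38. Of their list of 5, 4 rose with deprivation and ENGASE, a cytosolic enzyme that cuts off glycans, fell by 0.58.

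In the later, Golgi part of the pathway, 7 of 18 tested genes rose with deprivation and 8 fell, where 31.0% of all genes rose and 29.6% fell. ST3GAL6 (-1.84), a sialyltransferase, MAN1A1 (-1.57) and MAN1C1 (-1.43), mannosidases, had the largest falls. MAN2A2 (0.66), ST3GAL3 (0.66), MAN1A2 (0.60) and MAN2A1 (0.60) had the largest rises. MAN1A1 went from a mean of 95.6 CPM in the high-glucose control to 32.3 CPM in the deprived control, and stood at 98 CPM in the 2-DG control. With 2-DG, B4GALT2 (0.35), FUT8 (0.27) and MGAT2 (0.16) rose and 0 fell.

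In amino sugar salvage and O-GlcNAc, a single-sugar mark on proteins inside the cell that uses the same UDP-N-acetylglucosamine, 6 of 7 genes rose with deprivation and GNPDA2, which returns glucosamine 6-phosphate to glycolysis, fell by 0.72. GNPDA1, the isoenzyme of GNPDA2, was among the 6 that rose. Its means were 115 CPM in the high-glucose control and 148 CPM in the deprived control, and those of GNPDA2 were 37.5 and 22.9 CPM. Of all genes, 31.0% rose and 29.6% fell with deprivation. UAP1L1 (0.97), a relative of UAP1, OGT (0.93), which adds O-GlcNAc, and AMDHD2 (0.41), which takes the acetyl group off N-acetylglucosamine 6-phosphate, had the largest rises. Of the 8 genes of nucleotide sugar transport and GDP-fucose, 3 rose with deprivation: SLC35C1 (1.04) and SLC35A2 (0.71), transporters of GDP-fucose and UDP-galactose, and GFUS (0.48). FPGT fell by 0.41, so that 50% of this list passed, beside 60.6% of all genes. The same 3 rose with 2-DG, SLC35C1 and SLC35A2 by 0.50 each and GFUS by 0.47, where 7.99% of all genes rose. Among the other dolichol and lipid-linked genes, NUS1 (0.83), the partner of DHDDS, and DOLPP1 (0.18) rose. Of 4 further oligosaccharyltransferase subunits and partners, MLEC, a lectin of the ER, rose by 0.44 with deprivation and by 0.55 with 2-DG.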

How the data were processed

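RNA from 18 Cal27 cultures was sequenced, 3 libraries in each of 6 groups. The authors deposited 1 table of raw counts per gene and library, per the file headers. Reads were aligned with HISAT2 2.0.4, per the submitters' processing notes. These list hg19 as well as GRCh38, with no role for either. For the counting program, annotation and strand setting, the sources used here give nothing.

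Counts were tested in edgeR 4.0.16 (R 4.3.3; limma 3.58.1) after filterByExpr (at least 10 counts, 15 in total), with TMM scaling, a robust quasi-likelihood fit of all 18 libraries with 1 coefficient per group (12 residual degrees of freedom; common coefficient of variation 9.44%) and Benjamini-Hochberg adjustment over 18159 genes, threshold 0.05, no fold threshold. The SE is the size of the log2 fold change divided by the square root of F. Symbols were found for 60370 of 60683 IDs. Exon lengths and overlaps come from GENCODE 29, promoter windows from RefSeq. The scripts were tested on simulated data for deprivation against high glucose without CGRP, with changes put into 200 genes drawn from all 18159 tested. Of genes raised 2-fold 76% were recovered, and of genes lowered 2-fold 58%. At 1.5-fold these shares were 58% and 54%, and 0.0445% of unchanged genes passed. A gene that did not pass may therefore still differ. No 2 libraries of a group agreed within sampling noise (chi-square per degree of freedom at least 1.43).

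The genes and lists were chosen with earlier results of these data known. In each role group, every library is given for the 2 genes that passed with the largest difference under deprivation and the 1 under 2-DG, for GFPT1, DPAGT1, STT3A and STT3B, and for genes that passed in an interaction. Every gene that passed with CGRP is named. In the neighbour lists up to 3 genes each way are named; others were chosen after their values were seen, and some genes of these lists are not reported here. Alternatives were DESeq2 1.42.0 (size factors; Wald test), total counts, no filter, a filter for well expressed genes (above 1 CPM in 3 libraries and 2 CPM on average), only the groups compared, a replicate block, each library left out, and both libraries that stand apart left out.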

Additional observations from a re-analysis of the deposited data

Results flagged for a closer look

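The response to CGRP differed between 2-DG and high-glucose medium by a test of the interaction for 2 of the 48 genes. STT3A, a catalytic subunit of oligosaccharyltransferase, differed by -0.37, and MOGS, glucosidase I, by -0.34 on the log2 scale. In both, CGRP went with lower levels in 2-DG medium (-0.44 and -0.28) and with no difference that passed in high glucose (-0.07 and 0.06). The call of MOGS was lost on leaving out any single library compared, and that of STT3A on leaving out any except 2-DG control replicate 2. With no low-count filter neither passed.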

How the results depend on the processing

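Counts of the 48 genes that passed in the contrasts of deprivation with high glucose and of 2-DG with either other control stayed within 1.5 times under the alternatives. The others moved, as follows. For CGRP in high glucose (2 genes) the count was 0 with DESeq2's size factors, with no low-count filter and with the replicate block, 1 with total counts, 9 with only the groups compared and 8 without both libraries that stand apart. For 2-DG in cells with CGRP (5) it was 3 with total counts, 2 with no filter, 14 with only the groups compared, 20 without both libraries and 8 by DESeq2. For CGRP in deprived medium (4) it was 2 with no filter, 0 with only the groups compared and 11 without both libraries. For CGRP in 2-DG medium (21) it was 12 with only the groups compared. For the interaction with deprivation (0) it was 6 without both libraries. For that with 2-DG (2) it was 1 with total counts, 0 with no filter, 4 with the stricter filter, 7 with only the groups compared, 23 without both libraries and 8 by DESeq2. The cause was not tested.

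Over all genes, with no filter, the counts were 246 (2-DG with CGRP; 434 in the fit reported), 474 (CGRP in high glucose; 787), 1463 (CGRP in deprived; 2354), 163 (interaction with deprivation; 282) and 30 (interaction with 2-DG; 71). With only the groups compared they were 1499 (2-DG without CGRP; 2513), 2336, 3641, 131, 1156 (CGRP in 2-DG; 2216), 161 and 148. Without both libraries they were 6002, 3597, 3519, 5280, 5233, 2476 and 1088 in the same order of comparisons. DESeq2's Wald test gave 710 for 2-DG with CGRP and 519 and 228 for the interactions.

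Leaving out 1 library at a time, the 48 gave 0 for CGRP in high glucose, 1 to 2 for 2-DG with CGRP, 2 to 5 for CGRP in deprived medium, 14 to 19 for CGRP in 2-DG medium, 0 to 1 for the interaction with deprivation and 0 to 2 for that with 2-DG. Over all genes the ranges were 1607 to 2098 (2-DG without CGRP), 162 to 192, 361 to 488, 1290 to 2726, 1463 to 1832, 164 to 596 and 13 to 53.

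Among values that passed in either fit, signs turned with total counts for ALG6 under deprivation (-0.12 without and -0.10 with CGRP) and MPI under deprivation with CGRP (-0.13). Without both libraries they turned for TMEM258 (-0.33 for 2-DG against deprived and -0.33 for CGRP in deprived medium), for NANS (-0.16), GFUS (-0.12), MLEC (0.10), GMDS (-0.17), CANX (0.10) and UGGT1 (0.16) with CGRP in deprived medium, for MAN2A1 (-0.11) with CGRP in 2-DG medium, and for MPDU1 (-0.21), UGGT1 (0.20) and OST4 (-0.16) in the interaction with deprivation. Signs of values that passed in neither fit are not listed; of the 48, those positive for CGRP in deprived medium went from 24 to 14 without both libraries.

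Replicates of different groups share a number. Both libraries that stand apart are replicate 2, on the same side of the second component (59.3 and 34.6). In deprived CGRP and 2-DG control, UGGT1 (252 and 202 CPM) and ALG11 (9.71 and 7.04 CPM) were below both mates. DAD1 (177 and 175 CPM) was above them. By exon length, UGGT1 (11.3 kb) was low and DAD1 (0.808 kb) high, but ALG14 (9.63 kb) was high in both. A link with gene length or a shared origin of the deviations was not tested. Same-numbered libraries had correlations of -0.19 to 0.64 (median -0.006) in their deviations from the group means, and 6 of 18 libraries correlated best with their own number, so the numbers were not taken to pair the samples. The replicate block moved the count for CGRP in high glucose to 0 and no other count of the 48 by over 1.5 times.

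With 3 libraries per group of 1 line, small differences rest on single libraries, as named above. Of the 48, ALG9 and TUSC3 were among the genes with fewest counts. Transcript levels say nothing of enzyme activity or of glycans.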

Other observations

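Outside the 48 genes, OGA, the enzyme that takes O-GlcNAc off proteins, had a CGRP response that depended on the medium. Its mean level was 162 CPM in high glucose without CGRP and 157 CPM with it, 193 CPM and 104 CPM in deprived medium, and 111 CPM and 121 CPM with 2-DG. The 3 deprived CGRP libraries held 109.6, 89.5 and 112 CPM. CGRP differed from control by -0.89 in deprived medium (adjusted p = 6.6e-06, edgeR's quasi-likelihood test), by -0.04 in high glucose and by 0.12 with 2-DG, and the interaction with deprivation was -0.85 (adjusted p = 9.5e-04). Over its alternatives the interaction ran from -0.91 to -0.75, and without both libraries that stand apart it was -0.75. OGT, its counterpart, was at 519 CPM in the deprived control and 386 CPM with CGRP and did not pass (-0.43, adjusted p = 0.08); the CGRP libraries held 451, 263 and 444 CPM.

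ST6GAL1, which adds sialic acid in another linkage than the ST3GAL enzymes, fell by 0.54 with CGRP in deprived medium (adjusted p = 0.0018) and did not pass in high glucose (-0.31) or with 2-DG (-0.20); the difference between media was not significant for deprivation (-0.22, adjusted p = 0.59). MAN2A2, a Golgi mannosidase, fell by 0.41 with CGRP in deprived medium (adjusted p = 0.03).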
